A study of Homo sapiens with 4 samples.

Results

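c-MYC occupancy was examined at the promoters of 37 genes whose enzymes make nucleotides, out of 19663 protein-coding genes on the nuclear chromosomes. The genes were chosen by name, as the enzymes of pyrimidine and purine ring synthesis, of deoxynucleotide and nucleoside phosphate production, of the folate-bound one-carbon units and of the pentose phosphate pathway. A gene was counted as having a promoter peak when a peak summit lay at most 1 kb from the transcription start (TSS) of any of its protein-coding transcripts in GENCODE version 44. The data are 4 lists of chromatin immunoprecipitation sequencing (ChIP-seq) peaks from MIA PaCa-2, a line long established from human pancreatic ductal adenocarcinoma, PDAC. This method sequences the DNA that an antibody brings down, and a peak is a place where more of it was found than in the surroundings. Treatments lasted 8 h and were the solvent DMSO alone, AMG510, a small-molecule inhibitor, at 100 nM, and trametinib, which inhibits the kinase MEK, at 10 nM. A c-MYC antibody was used under all 3 treatments and a non-specific immunoglobulin (IgG) in DMSO, with 1 library for each. The study followed c-MYC on chromatin when the MAPK pathway is inhibited. No group was replicated, so every difference below is between 2 libraries and no test of a treatment effect was possible.

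c-MYC is a transcription factor that binds DNA as a partner of MAX, with a preference for the E-box CACGTG, and many enzymes of nucleotide synthesis are among its best known target genes. Growing cells build pyrimidines as a free ring that is then joined to phosphoribosyl pyrophosphate (PRPP), whereas purines are assembled atom by atom on PRPP itself. The ribose of PRPP comes from the pentose phosphate pathway, and single carbons carried on folate enter the purine ring and turn dUMP into dTMP.

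The peaks were scored in tags, that is, aligned reads extended to the fragment length estimated for the library. The whole number of tags at each summit was recovered from the deposited values. Between 22700000 and 24800000 tags per library entered peak calling, as derived from the deposited values. The median summit held 10 to 13 tags depending on the list. The weakest called summits held 7 or 8 tags. Intervals given with tags are 95% exact Poisson intervals and those given with shares are 95% Wilson intervals. All intervals cover counting error only, and because the 2 reads of a pair may each enter as a tag they are too narrow. A gene without a called peak may still hold c-MYC below the calling limit.

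In DMSO, c-MYC was called at the promoters of most of these genes. A promoter peak was found for 25 of the 37 genes (67.6%) in the DMSO c-MYC list, against 24.2% of all protein-coding genes. In the AMG510 list 18 genes (48.6%) had a promoter peak, against 15.3% of all genes, and in the trametinib list 10 genes (27.0%) had a promoter peak, against 11.8%. None of the 37 genes had a promoter peak in the IgG list, where 0.559% of all genes did. The share of these genes was thus above the background of all genes in each c-MYC list and was lowest of the c-MYC lists under trametinib.

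**Figure D1:**
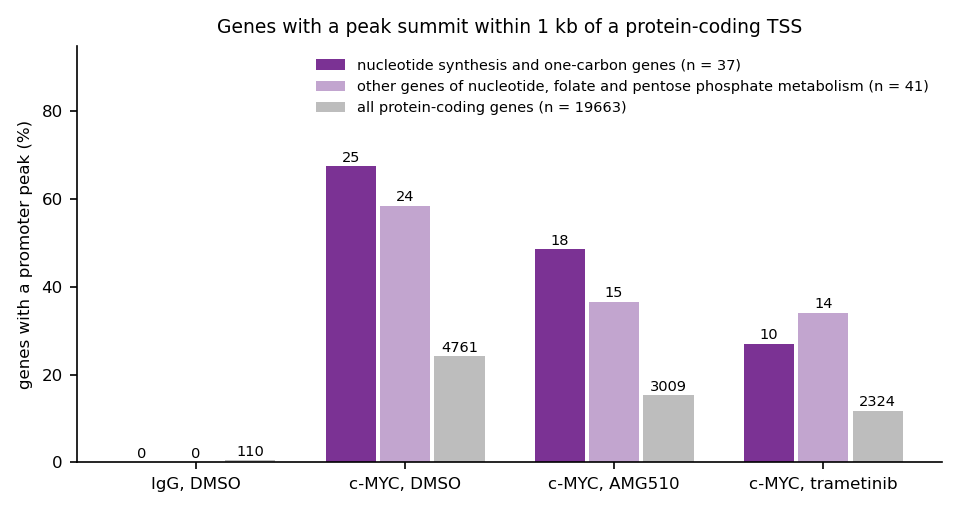
Share of genes (%, y axis) with a peak summit within 1 kb of a protein-coding TSS in each of the 4 libraries (x axis), for the 37 genes, 41 other genes of the same pathways and all 19663 protein-coding genes, with the number of genes above each bar. The 37 genes reached 67.6% in DMSO, 48.6% with AMG510, 27.0% with trametinib and 0 with IgG.

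The E-boxes nearest the summits are shown first, because they are the sequences under the peaks that the rest of the text describes. Each is printed with 12 bases on either side, 5′ to 3′ on the plus strand of the hg38 reference, with the E-box in capitals, for the genes with an E-box within 100 bp of a promoter summit in any c-MYC list.
CAD, chr2:27217468-27217497: gcgcgccgtcctCACGTGgttccagtggag
UMPS, chr3:124730829-124730858: cacacgcttagaCACGTGttttgcaaaagt
PPAT and PAICS, site in PPAT, chr4:56435480-56435509: cgccgccgaaagCACGTGgaaggacctgcc
PPAT and PAICS, site in PAICS, chr4:56436379-56436408: tgagctcgcggcCACGTGcgagccgcgaaa
PFAS, chr17:8249325-8249354: gagtgcatcttcCACGTGagtatagttacc
ATIC, chr2:215312076-215312105: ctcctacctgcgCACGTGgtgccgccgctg
IMPDH1, chr7:128405683-128405712: gggggagccgcgCACGTGcagggccggccc
DTYMK, chr2:241687417-241687446: gtagacgctggcCACGTGgcaattgtagga
NME1, site nearer the TSS, chr17:51153581-51153610: agtgctgcgaacCACGTGggtcccgggcgc
NME1, site in intron 1, chr17:51153830-51153859: cacgtcccacgcCACGTGgactcgcctttg
NME2, site nearer the TSS, chr17:51166699-51166728: cggccgggaagcCACGTGtccccgcggccg
NME2, site farther from the TSS, chr17:51166749-51166778: accggcggcgccCACGTGgcctccgcgggc
SHMT2, chr12:57229902-57229931: ggcttttccatgCACGTGgattggggcctc
MTHFD1L, chr6:150866320-150866349: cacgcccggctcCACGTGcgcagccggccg
RPIA, chr2:88691963-88691992: gctgtggagaacCACGTGagggtgagcact

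Of the 5 genes of pyrimidine ring synthesis, 4 had a c-MYC promoter peak in DMSO, 3 under AMG510 and 2 under trametinib. Here and in the steps below, the shares of all genes are again 24.2%, 15.3% and 11.8%, in the same order. No step holds more than 10 genes. CAD encodes the enzyme of the opening steps of the pathway, and its DMSO peak (chr2:27217306-27217866) held 24 tags (15.4 to 35.7) with the summit in the 5′ UTR, where it lay 138 bp past the canonical TSS with the E-box printed above 24 bp away. No promoter peak was called at CAD in AMG510, where the nearest summit was 47774 bp away. In trametinib the summit held 11 tags (5.49 to 19.7) and lay in intron 1, 219 bp downstream of the DMSO summit and without an E-box within 100 bp. DHODH, the mitochondrial enzyme that oxidizes dihydroorotate, had 13 tags in DMSO, 13 in AMG510 and no call in trametinib. UMPS, which makes UMP from orotate, had 15 tags in DMSO, 15 in AMG510 and no call in trametinib. At both genes the tags were equal in DMSO and AMG510, with wide intervals (6.92 to 22.2 for DHODH and 8.4 to 24.7 for UMPS). The summits lay 235 bp apart at UMPS and 308 bp apart at DHODH, so no single site is shown to be level. CTPS1, a CTP synthase, had the strongest peak of the step (chr1:40979705-40980323 in DMSO) with 40 tags (28.6 to 54.5) in DMSO, 29 (19.4 to 41.6) in AMG510 and 21 (13.0 to 32.1) in trametinib, all in intron 1 and within 79 bp of each other. Its paralogue CTPS2 had no promoter peak in any list. CTPS1 was the only gene of the step with a peak under all 3 treatments.

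Of the 8 genes for PRPP supply and the purine ring, 7 had a c-MYC promoter peak in DMSO, 4 under AMG510 and 3 under trametinib. PRPS2, a PRPP synthetase, had 16 tags in DMSO and no call under either drug, and the other synthetase gene, PRPS1, had no call at all. PPAT, which commits PRPP to purine synthesis, and PAICS, which catalyses later steps of the ring, lie head to head on chromosome 4 and share their promoter peaks. The peak in the first intron of PAICS (chr4:56436213-56436564 in DMSO) held 29 tags (19.4 to 41.6) in DMSO, 19 (11.4 to 29.7) in AMG510 and 20 (12.2 to 30.9) under trametinib. The peak at the start of PPAT held 20 tags in DMSO and 17 in AMG510 and was not called in trametinib. Each of these peaks had an E-box within 100 bp of its summit, as printed above, and the peak in PAICS was present under all 3 treatments. Counts of genes include both, and the peaks cannot be assigned to either gene.

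GART, which carries 3 activities of the purine ring including a formyl transfer from folate, had 23 tags (14.6 to 34.5) in DMSO and 19 (11.4 to 29.7) in trametinib at summits 42 bp apart in intron 1. AMG510 gave no promoter call at GART, and the nearest summit there was 20454 bp away. GART and CAD were the 2 genes called in DMSO and trametinib but not in AMG510. They were 8% of the 25 genes with a DMSO promoter peak, against 12.1% of all genes with one. A further DMSO peak upstream of GART held 16 tags and also lay within 1 kb of a TSS of SON. PFAS, the amidotransferase of the ring, had 17 tags in DMSO, 12 in AMG510 and no call in trametinib. An upstream DMSO peak of 14 tags was counted for PFAS and for its neighbour CTC1. ADSL, the adenylosuccinate lyase, had 12 tags in DMSO and no call under either drug. ATIC, which adds the last carbon and closes the ring, had 29 tags (19.4 to 41.6) in DMSO and 20 (12.2 to 30.9) in AMG510. In trametinib the nearest summit was 771869 bp away, so ATIC was among the stronger DMSO peaks without a trametinib call.

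From IMP, the purine pathway branches to AMP and GMP, and 3 of the 5 genes of these branches had a c-MYC promoter peak in DMSO, 3 under AMG510 and 2 under trametinib. IMPDH1 and IMPDH2 encode IMP dehydrogenase, the rate-limiting enzyme of GMP synthesis. IMPDH1 had 26 tags (16.98 to 38.1) in DMSO, 16 (9.15 to 26.0) in AMG510 and 16 (9.15 to 26.0) under trametinib. These peaks (chr7:128405387-128406037 in DMSO) lay in coding exon 4 of the canonical transcript, 4180 bp downstream of its TSS in DMSO, and were counted through the TSS of a shorter coding transcript 140 bp away. IMPDH2 had 11 tags in DMSO and no call under either drug. GMPS, which aminates XMP to GMP, had 16 tags in DMSO, 12 in AMG510 and no call in trametinib. The ADSS1 and ADSS2 genes, which encode the adenylosuccinate synthetases of the AMP branch, had no DMSO call. ADSS1 had 17 tags (9.90 to 27.2) in AMG510 alone, and ADSS2 had 18 tags (10.7 to 28.4) in trametinib alone.

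The 10 genes for deoxynucleotides and nucleotide kinases held the strongest DMSO peaks of all 37, and 6 of them had a c-MYC promoter peak in DMSO, 4 under AMG510 and 2 under trametinib. NME1 and NME2 are neighbours on chromosome 17 and encode nucleoside diphosphate kinases, which pass phosphate between nucleotides. The DMSO peak of NME1 (chr17:51153422-51154130) held 68 tags (52.8 to 86.2) at a fold enrichment of 14.7, above 99.9% of the peaks of the list. In AMG510 the promoter of NME1 had 2 separate peaks of 15 and 22 (13.8 to 33.3) tags, and in trametinib 1 peak of 22 (13.8 to 33.3). NME2 (chr17:51166440-51167146 in DMSO) had 65 tags (50.2 to 82.8) in DMSO, 24 (15.4 to 35.7) in AMG510 and 24 (15.4 to 35.7) in trametinib. At both genes the interval in DMSO lay above the intervals under either drug. The NME1 peaks were also within 1 kb of a TSS of the read-through gene NME1-NME2. Every summit at NME1 and NME2 had an E-box within 100 bp, at 1 to 53 bp.

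RRM2 encodes the small subunit of ribonucleotide reductase, which turns ribonucleotides into deoxynucleotides. Its DMSO peak (chr2:10120437-10120982) held 31 tags (21.1 to 44.002) and lay 2151 bp upstream of the canonical TSS, counted through the start of another coding transcript 110 bp away. Neither drug list had a peak there, and the nearest summits were 40930 bp away in AMG510 and 260101 bp away in trametinib. TYMS, which methylates dUMP to dTMP, had 16 tags in DMSO and no call under either drug. DUT, which removes dUTP, had 11 tags in DMSO, 9 in AMG510 and no call in trametinib. DTYMK, the thymidylate kinase, had 24 tags (15.4 to 35.7) in DMSO, 14 (7.65 to 23.5) in AMG510 and no call in trametinib, at peaks shared with the promoter of ING5. RRM1, RRM2B, CMPK1 and TK1 had no promoter peak in any list, so of the 3 ribonucleotide reductase genes only RRM2 was called.

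Of the 5 genes for one-carbon units, 3 had a c-MYC promoter peak in DMSO, 3 under AMG510 and 1 under trametinib. All of these encode enzymes of the mitochondrial branch. MTHFD2, the mitochondrial methylene-tetrahydrofolate dehydrogenase, had 32 tags (21.9 to 45.2) in DMSO (chr2:74198496-74199065), 23 (14.6 to 34.5) in AMG510 and 31 (21.1 to 44.002) in trametinib. Its summits lay within 46 bp of each other at the TSS. It held the most tags of the 37 genes in trametinib, and its level there was close to that in DMSO. MTHFD1L, which releases formate from mitochondria, had 30 tags (20.2 to 42.8) in DMSO (chr6:150866126-150866542) and 16 (9.15 to 26.0) in AMG510 at the same base, 21 bp from an E-box, and no call in trametinib. A further DMSO peak of 19 tags lay nearer the canonical TSS. SHMT2, the mitochondrial serine hydroxymethyltransferase, had 10 tags in DMSO and 15 in AMG510, but these peaks did not overlap and their summits were 419 bp apart. The AMG510 summit of SHMT2 had an E-box 52 bp away and the DMSO summit had none within 100 bp. The genes of the cytosolic enzymes, SHMT1 and MTHFD1, had no call in any list.

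Of the 4 pentose phosphate genes, 2 had a c-MYC promoter peak in DMSO, 1 under AMG510 and 0 under trametinib. RPIA, which makes ribose 5-phosphate, had 30 tags (20.2 to 42.8) in DMSO (chr2:88691704-88692130) in its first coding exon, with an E-box 6 bp from the summit. The peak also lay within 1 kb of a TSS of EIF2AK3. Under the drugs no summit lay nearer than 179290 bp in AMG510 and 71952 bp in trametinib. PGD, which releases CO2 from 6-phosphogluconate, had 17 tags in DMSO and no call under either drug. TKT, the transketolase, had 13 tags (6.92 to 22.2) in AMG510 alone, and RPE, the epimerase, had no call. The 2 genes called in DMSO were thus called under neither drug, but the interval of this share runs from 0 to 65.8%. Of all genes with a DMSO promoter peak, 43.0% were also called in AMG510 and 35.2% in trametinib.

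**Figure D2:**
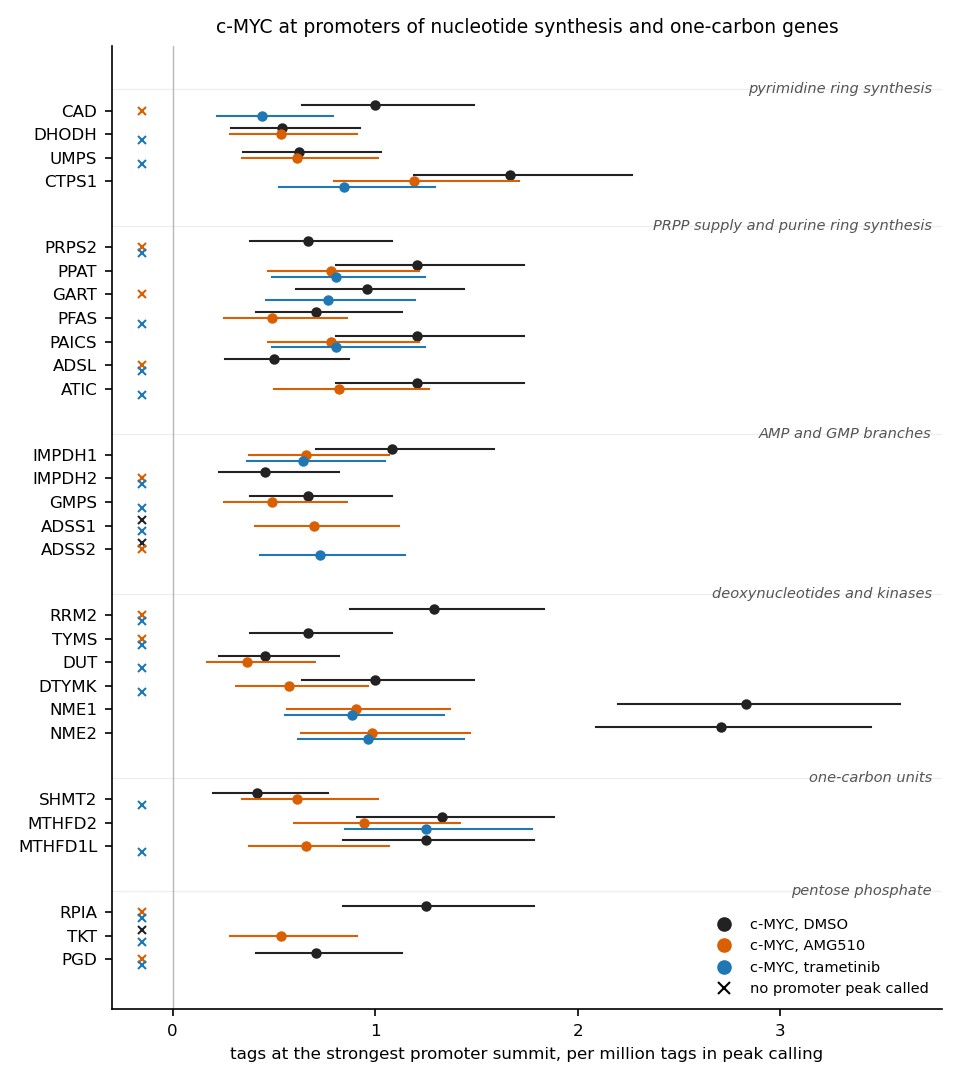
Tags at the strongest promoter summit of each gene scaled to 1e+06 tags in peak calling (x axis) for the 28 genes with a promoter peak in any c-MYC list (y axis, grouped by step), with 95% Poisson intervals as lines and crosses on the left where no promoter peak was called. NME1 and NME2 stood at 2.83 and 2.71 scaled tags in DMSO and below 1 in both drug libraries.

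The lists were then compared gene by gene. Of the 25 genes with a DMSO promoter peak, 16 were also called in AMG510 (64%, 44.5 to 79.8), against 43.0% of the 4761 genes with a DMSO promoter peak. In trametinib 9 of the 25 were (36%, 20.2 to 55.5), against 35.2% of the same 4761 genes. With all deposited peaks, the share for trametinib was thus at the background, and that for AMG510 lay above it by a margin close to its counting error. Stricter limits on the peaks, given below, gave trametinib shares above their background, but on 16 or 14 genes and without intervals. Both comparisons use the same DMSO library. The 7 genes called under all 3 treatments were CTPS1, PPAT, PAICS, IMPDH1, NME1, NME2 and MTHFD2 (28%, against 23.1% of the 4761 genes). The 9 genes called in DMSO and AMG510 alone were DHODH, UMPS, PFAS, ATIC, GMPS, DUT, DTYMK, SHMT2 and MTHFD1L (36%, against 19.8%). CAD and GART were called in DMSO and trametinib alone (8%, against 12.1%). A DMSO call with none under either drug was found for PRPS2, ADSL, IMPDH2, RRM2, TYMS, RPIA and PGD (28%, against 44.9%). The calls of ADSS1, ADSS2 and TKT came from a drug list alone.

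The genes kept under trametinib had the stronger DMSO peaks. The DMSO summits of the 9 kept genes held 23 to 68 tags with a median of 29, and those of the 16 others 10 to 31 tags with a median of 16, so that the ranges overlap. For AMG510 the medians were 27.5 tags for the 16 kept genes and 17 for the 9 others. Over all genes with a DMSO promoter peak, the medians were 21 tags for kept and 15 for other genes in trametinib, and 20 and 15 in AMG510. These genes as a whole had stronger DMSO peaks than other genes with a call, with a median of 24 tags against 16. Among DMSO promoters with a fold enrichment above 5, 62.5% of the 16 genes also had a peak in AMG510, against 56.0% of all such genes, and 56.2% in trametinib, against 48.5%. With the same limit in both lists of a pair, the shares were 56.2% for AMG510 (9 of 16), against 29.1%, and 43.8% for trametinib (7 of 16), against 27.1%. With a score above 60 in both lists they were 50% each (7 of 14), against 23.0% and 23.2%. The distance from the background thus depended on the limit and on the list to which it was applied. No intervals were computed for these shares of few genes, and the part of the stronger DMSO peaks in them was not tested.

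Some strong DMSO peaks had no counterpart although the height needed for a call was below the DMSO value. Only the height at the summit was considered, and the width that a call also needs was not. If the local background of the DMSO library, scaled by the genome-wide background of each list, is taken for the drug libraries, a call at RRM2 needed 11 tags in AMG510 and 12 in trametinib, where DMSO had 31. At RPIA, 8 and 9 tags were needed, where DMSO had 30. ATIC and MTHFD1L needed 10 and 12 tags in trametinib, where DMSO had 29 and 30. CAD and GART needed 9 and 11 tags in AMG510, where DMSO had 24 and 23. At the weakest DMSO peaks, such as those of IMPDH2 with 11 tags and ADSL with 12, a call needed 8 or 9 tags, which lies within the counting interval of the DMSO value.

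Where a gene had a promoter peak in both lists, the tags at its strongest summit were compared as a log2 ratio scaled to the tags in calling, with PPAT and PAICS taken as 1 promoter. For AMG510, 14 of 15 promoters were below DMSO, with a median log2 ratio of −0.52 and a range from −1.65 to 0.56. Over the 2045 genes called in both lists the median was −0.49, and 88.1% were below DMSO. For trametinib, 8 of 8 promoters were below DMSO, with a median of −0.86 and a range from −1.68 to −0.093, where the median of 1678 genes was −0.46 and 85.5% of them were below DMSO. The fragment length used for extension was 177 bp in DMSO, 157 bp in AMG510 and 163 bp in trametinib, and a longer extension piles up more tags. Scaled to the background rate of each library, which takes this length in, the medians were −0.35 and −0.74, against −0.32 and −0.34 for all genes. Under this scaling the direction turned at DHODH and UMPS in AMG510, to 0.15 each, and at MTHFD2 in trametinib, to 0.026. The values hold only for genes called in both lists. The promoters compared had stronger DMSO summits than all such genes, with medians of 26 against 20 tags for AMG510 and 30.5 against 21 for trametinib. A stronger DMSO summit can fall further and still be called. How much of the distance from all genes goes with this strength was not tested.

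Single promoters past a 1.5-fold difference, with an exact binomial interval that left out 0, were few. In AMG510 they were 3 of 15, against 16.8% of the 2045 genes. NME1 had a log2 ratio of −1.65 (−2.41 to −0.94), NME2 of −1.46 (−2.20 to −0.76) and MTHFD1L of −0.93 (−1.90 to −0.0059). The ratio of NME1 took the stronger AMG510 summit, 304 bp from the DMSO summit, while the AMG510 summit of 15 tags lay 48 bp from it. In trametinib they were 4 of 8, against 17.2% of the 1678 genes. NME1 was at −1.68 (−2.44 to −0.96), NME2 at −1.48 (−2.22 to −0.79), CAD at −1.17 (−2.35 to −0.089) and CTPS1 at −0.98 (−1.81 to −0.18). Scaled to the background rate, 2 of 15 promoters were past the limit in AMG510, against 8.998% of all genes, and 3 of 8 in trametinib, against 11.9%. NME1 stood at −1.48 and −1.56 under this scaling and NME2 at −1.28 and −1.37, and CTPS1 was at −0.86 in trametinib. The calls of MTHFD1L in AMG510, at −0.75 (−1.73 to 0.17), and of CAD in trametinib, at −1.05 (−2.23 to 0.030), were lost, and that of MTHFD1L was also lost without any scaling, at −0.91 (−1.88 to 0.014). No promoter of these genes was past 1.5-fold higher under either drug. MTHFD2 differed by −0.093 (−0.85 to 0.67) in trametinib, and SHMT2 was the promoter above DMSO in AMG510, at 0.56 (−0.69 to 1.88). The peaks compared at SHMT2 did not overlap. The interval of SHMT2 holds 0, so a difference was not detectable at this depth. The shares past the limit also compare promoters with stronger DMSO summits to all genes, and the part of this strength was not tested.

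**Figure D3:**
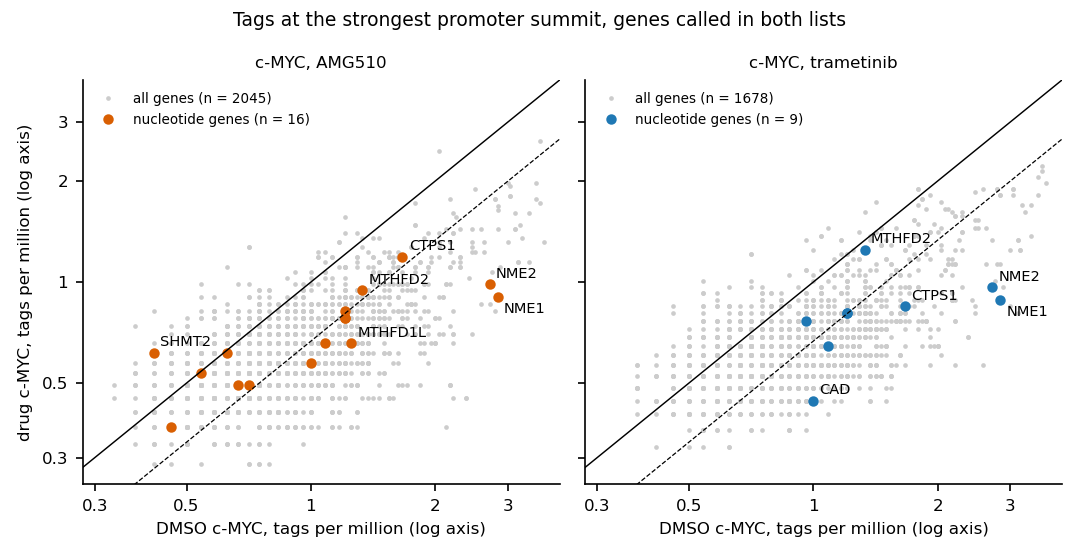
Tags at the strongest promoter summit, scaled to 1e+06 tags in calling, in DMSO (x axis, log scale) and under AMG510 (left) or trametinib (right; y axis, log scale) for genes called in both lists, with a solid line at equal values and a dashed line at 1.5-fold lower. NME1 and NME2 lie far below the dashed line in both panels, and MTHFD2 lies near the solid line in trametinib.

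The summits sat close to the start of transcription, mostly on its downstream side. Counted per gene and peak, 66.7% of DMSO summits lay downstream of the nearest protein-coding TSS, against 61.9% for all genes. The shares were 61.9% in AMG510 against 61.0%, and 80% in trametinib (8 of 10) against 61.2%. Clear exceptions to the downstream position were the summits of DTYMK, 471 bp upstream in DMSO and 572 bp in AMG510, and that of ADSL, 162 bp upstream of the canonical TSS. GMPS had the most distant summits inside the first intron, 703 bp in DMSO and 781 bp in AMG510 from its canonical TSS. The peaks were wider than those of other promoters in DMSO, with a median of 384.5 bp against 291 bp.

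**Figure D4:**
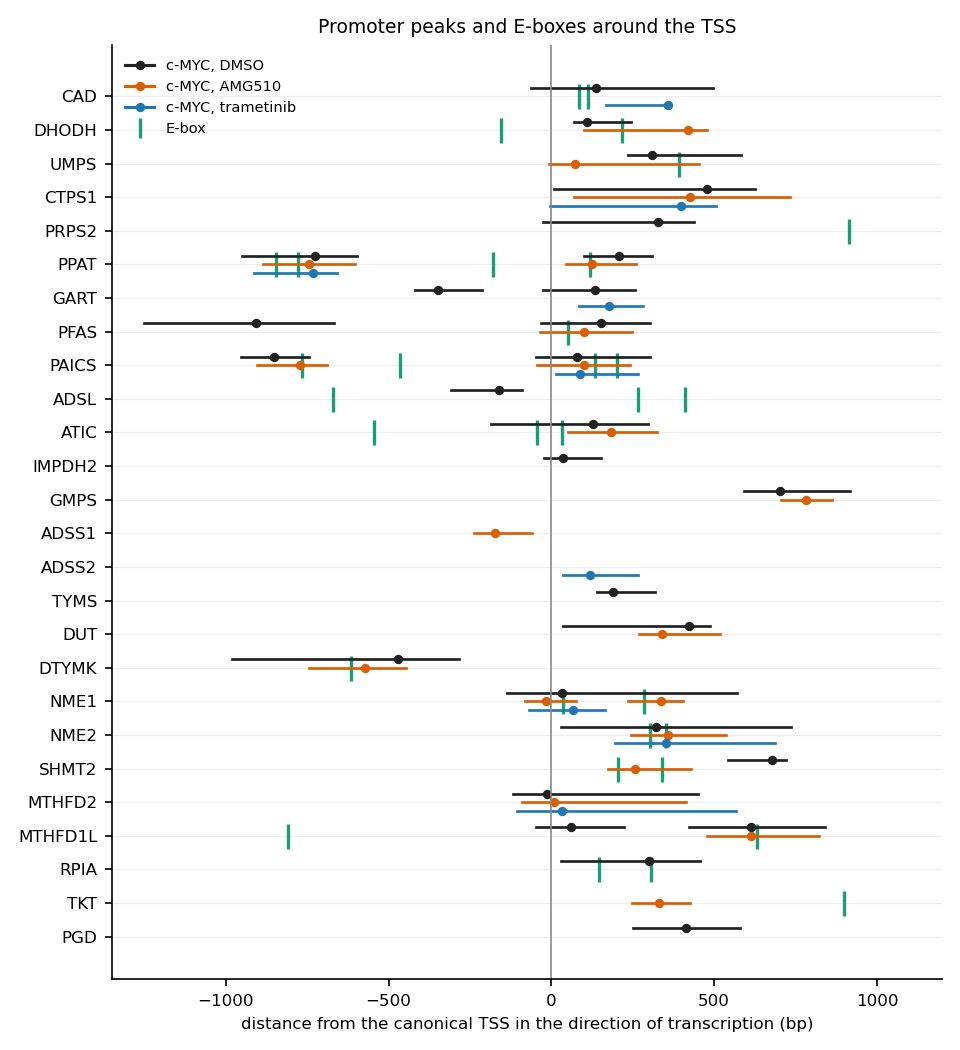
Promoter peaks (lines) and their summits (points) for each c-MYC library, with E-boxes as vertical bars, by distance in bp from the canonical TSS in the direction of transcription (x axis). IMPDH1 and RRM2, whose peaks lie 4180 bp downstream and 2151 bp upstream of the canonical TSS in DMSO, are left out.

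An E-box was more frequent under these summits than under promoter summits in general. CACGTG, which reads the same on both strands, was within 100 bp of the summit in 9 of 28 distinct DMSO peaks (32.1%, 17.9 to 50.7), against 16.9% of all DMSO promoter peaks. In AMG510 it was found in 9 of 19 peaks (47.4%, 27.3 to 68.3), against 14.4%, and in trametinib in 4 of 9 (44.4%, 18.9 to 73.3), against 17.3%. With the related motif CACGCG, searched on both strands, counted as well, the shares were 67.9%, 63.2% and 55.6%, against 37.0%, 32.5% and 35.9%. GC content was not higher, as the median within 100 bp of the summit was 69.4% in DMSO for these peaks and 72.1% for all promoter peaks. Some strong peaks had neither motif within 100 bp of their summits, such as those of CTPS1 and GART wherever these were called, and those of MTHFD2 had only CACGCG.

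Around the start sites themselves, 14 of the 37 genes (37.8%) had CACGTG within 500 bp of the canonical TSS, against 18.3% of all protein-coding genes. Among the 25 genes with a DMSO peak the share was 48%, against 28.4% of all genes with a DMSO peak. Of the 9 genes without a promoter peak in any c-MYC list, SHMT1 and MTHFD1 had an E-box in this window. Calls without an E-box in this window, as at CTPS1 and GART, and an E-box without a call were thus both found.

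The remaining genes of these pathways were read from a list of 41 genes of folate and serine metabolism, nucleotide salvage, other nucleotide kinases and clean-up enzymes, and the pentose phosphate pathway. The DMSO list held a c-MYC promoter peak for 24 of them (58.5%), the AMG510 list for 15 (36.6%), the trametinib list for 14 (34.1%) and the IgG list for 0. The shares of all protein-coding genes were 24.2%, 15.3%, 11.8% and 0.559%. Calls at 10 of the 24 were shared with AMG510 and calls at 10 with trametinib (41.7% each, 24.5 to 61.2), near the 43.0% and 35.2% of all genes. The salvage genes had 7 of 12 called in DMSO, 6 in AMG510 and 6 under trametinib. The folate and serine genes had 9 of 14 called in DMSO, 4 in AMG510 and 4 under trametinib. The other kinases and clean-up enzymes had 6 of 12, 4 and 4, and the other pentose phosphate genes 2 of 3, 1 and 0.

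In this list 6 genes were called under all 3 treatments. They were 25% of the 24 genes with a DMSO call, near the 23.1% of all genes with one. UCK2, a uridine and cytidine kinase, had 75 tags in DMSO, 35 in AMG510 and 33 in trametinib. MTR, the methionine synthase, had 43, 18 and 27 tags, and FPGS, which keeps folates in the cell, had 40, 12 and 24 tags in the same order. MTR, FPGS and HPRT1 held more tags in trametinib than in AMG510, whereas UCK2, APRT and NME4 held fewer. The intervals overlap, at 10.7 to 28.4 in AMG510 and 17.8 to 39.3 in trametinib for MTR. For FPGS they were 6.20 to 21.0 and 15.4 to 35.7. The purine salvage enzymes HPRT1 and APRT had 30 and 39 tags in DMSO, 17 and 24 in AMG510, and 18 and 23 in trametinib. NME4, a mitochondrial nucleoside diphosphate kinase, had 14 (7.65 to 23.5), 17 (9.90 to 27.2) and 12 (6.20 to 21.0) tags. A difference between the libraries was not detectable there at this depth. Its DMSO summit was weak and could fall little and still be called, so its tags cannot be set against those of NME1 and NME2.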

How the data were processed

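c-MYC and IgG ChIP-seq peak lists of 4 MIA PaCa-2 libraries were used, grouped by sample title. Per the methods of the study, the authors used Trimmomatic (0.39) for trimming, BWA (0.7.17) for alignment to GRCh38, SAMtools (1.9) and Picard for filtering, bedtools (2.27.1) for conversion and MACS2 (2.2.7.1) for peaks per library, and dropped peaks on an exclusion list. The deposited score is 10 times the −log10 q-value without its decimals. The deposited fold enrichment is the ratio of summit tags to local background after the same small constant was added to both. The −log10 p-value and −log10 q-value are the authors' own. The depth in calling was 22700000 (IgG), 24000000 (DMSO), 24300000 (AMG510) and 24800000 (trametinib) tags, derived from the background rate, the extension and a genome of 2.7e+09 bp.

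Tags at each summit were solved from the fold enrichment and p-value with Python (3.11.15), numpy (2.4.6), scipy (1.17.1) and pandas (2.3.3), and were whole (tolerance 0.001) in 100% of peaks. The step was tested on simulated data. Figures were drawn with matplotlib (3.10.9). Every contig of the lists was in the hg38 sequence. Genes came from GENCODE version 44, with positions in exons and introns on the canonical transcript. With 1 library per group no test was run. Ratios carry Clopper-Pearson intervals. Every gene of the list with a c-MYC promoter peak is described in all libraries, the others are named, and genes of the further list are named when called under all 3 treatments. E-boxes are printed for genes with an E-box within 100 bp of a promoter summit. The genes and lists were chosen with earlier results of these data known. Alternatives varied the distance, the transcripts, the peak threshold, the overlap, the scaling and the motif window. Those on list length, on the shared promoter of PPAT and PAICS and on the background rate were chosen after seeing the data. What AMG510 inhibits is not reported here.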

Additional observations from a re-analysis of the deposited data

Results flagged for a closer look

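Peaks inside the bodies of the 37 genes, away from the promoters, were not used above. There were 5 in DMSO c-MYC (1.62 to 11.7), 5 in AMG510 c-MYC (1.62 to 11.7), 1 in trametinib c-MYC (0.0253 to 5.57) and 1 in IgG (0.0253 to 5.57), where the brackets give 95% exact Poisson intervals. The counts in DMSO and AMG510 c-MYC drew attention because they exceed that in IgG, but the intervals overlap and the lists differ in length, from 2966 peaks in IgG to 10378 in AMG510. As a share of the 37 genes, such a peak was found for 13.5% with DMSO, 13.5% with AMG510, 2.70% with trametinib and 2.70% with IgG, where 9.02%, 12.7%, 6.18% and 5.38% of all protein-coding genes did. The DMSO peaks lay in CTPS1, CTPS2, GMPS, RRM2 and MTHFD1L and held 9 to 13 tags. Those of AMG510 lay in CTPS2, PAICS, GMPS, RRM1 and MTHFD1L and held 8 to 11 tags. None of these 10 peaks had an E-box within 100 bp of its summit. The trametinib peak lay in ADSS2 with 11 tags and the IgG peak in RPIA with 9 tags, and both had an E-box within 100 bp.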

How the results depend on the processing

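Of 89 alternative values over 17 results, 77 stayed within the limits set for a like value, 12 moved and 0 reversed. Those that stayed include the IgG counts, which were 0 throughout, several under settings that could not raise them. They also include the trametinib count with its list cut to its own length, which could not change. With a fold enrichment above 5, the genes with a promoter peak numbered 16 in DMSO (12.1% of all genes), and with a score above 60 they numbered 14 in DMSO (9.81%) and 8 in AMG510 (2.98%). For the 41 other pathway genes, a fold enrichment above 5 left 10 in DMSO, 9 in AMG510 and 9 under trametinib (12.1%, 5.75% and 4.87% of all genes). The share of DMSO genes kept in trametinib was 56.2% when that limit was set in the DMSO list only. The deposited fold enrichment in place of tags gave median log2 ratios of −0.28 for AMG510 and −0.48 for trametinib, against −0.20 and −0.23 over all genes. An E-box within 50 bp was found in 17.9% of DMSO and 26.3% of AMG510 peaks (10.5% and 7.98% of all promoter peaks), and CACGTG or CACGCG in 67.9% of DMSO peaks (37.0%). The stricter limits keep fewer peaks, the 50 bp window is narrower and the added motif can only raise a share, each by construction. The cause of the shift with fold enrichment was not tested. With each c-MYC list cut to its 5431 most significant peaks, an alternative chosen after seeing the data, 20, 15 and 10 genes had a promoter peak in DMSO, AMG510 and trametinib (18.1%, 10.8% and 11.8% of all genes), and 55% of the DMSO genes were kept in AMG510 (39.0% of all genes) and 45% in trametinib (41.8%). No paired analysis was possible because groups were single libraries, which also leaves no replicate to omit. Low tag numbers limit what can be seen at single promoters.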
